A study of Mus musculus with 4 samples.

Results

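The glycolytic enzymes and the glucose transporter described here were 10 genes, namely Slc2a1, Hk2, Pfkp, Aldoa, Gapdh, Pgk1, Pgam1, Eno1, Pkm and Ldha. They were taken by symbol from both single-cell count tables and matched 11 of 32285 rows, because Aldoa holds a pair of rows, which were summed. Their levels were described in 6 classes of cells and in 2 libraries. The libraries came from hepatic CD4+ T cells of male mice, sorted by flow cytometry and sequenced from the 5′ end of each transcript. The library labelled dKO came from mice with floxed Nr4a1 and Nr4a2 alleles (fl/fl for each gene) and Cd4Cre, in which the Cd4 promoter drives Cre in T cells, and the library labelled WT from WT mice. Both groups were fed CD for 8 weeks, a diet with no added choline, with 0.1% methionine and with 60% of its calories from fat. The age of these mice is not given in the sources used here. Each library was pooled from 2 mice, so each genotype had 1 library, and no value below has a replicate check or a p-value. Intervals are 95% intervals that cover counting error only.

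Glycolysis splits glucose into pyruvate in the cytosol. Glucose enters through carriers such as GLUT1, hexokinase and phosphofructokinase commit it at the expense of ATP, and the later enzymes recover ATP and NADH. Lactate dehydrogenase turns pyruvate into lactate and restores NAD+. T cells that are activated and divide are known to raise glucose uptake and to carry pyruvate to lactate even where oxygen is present, whereas resting T cells rely more on mitochondrial oxidation.

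The targeted genes were read first. Over all cells, Nr4a1 was at 725 UMIs per 1000000 UMIs (CPM) in the library labelled WT and 1659 CPM in the library labelled dKO, and Nr4a2 was at 183 and 306 CPM. Both were therefore higher in the library labelled dKO, against its label, also in the T cell classes, where Nr4a1 was at 699 and 1917 CPM. Nr4a3, which was not targeted, was at 291 and 295 CPM over all cells. Reads from the 5′ end can come from transcripts that lack the deleted part, and these values therefore do not check the deletion. Directions between the libraries below are given as those of the library labelled dKO relative to the library labelled WT.

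After filters on genes and mitochondrial UMIs, 10556 of 10602 cells remained in the library labelled WT and 17462 of 17645 in the library labelled dKO, with 23437500 and 37795000 UMIs and medians of 1679 and 1685 UMIs per cell. The libraries shared 242 cell barcodes. Classes were gated on UMIs of marker genes that are not members, and they held 6342 and 10180 cells. Those of the library labelled WT were 645 cycling cells (genes such as Mki67 and Top2a), 412 Foxp3+ Tregs, 1723 effector cells (Ifng, Il17a, Fasl and others), 1617 naive-like cells (Ccr7, Lef1 and others), 1619 plasmacytoid dendritic cells (pDC, Siglech and others) and 326 myeloid cells (Lyz2, C1qa and others). The classes of the library labelled dKO held 504, 3084, 955, 1169, 4020 and 448 cells in the same order. Of the Tregs, 242 of 412 and 1816 of 3084 held only 1 Foxp3 UMI, the minimum of that gate. The sort was labelled as CD4 T cells, but pDC and myeloid cells were not T cells by their markers, and TCR contigs were found in 7.84% and 6.69% of pDC and in 17.2% and 9.82% of myeloid cells, against 38.5% to 71.0% in the T cell classes. Mouse pDC are known to carry CD4. A separate set of pDC genes that the gate did not use (Bst2, Irf8, Tcf4, Runx2) summed to 7543 and 7521 CPM in pDC and to between 197 and 817 CPM in the other classes. Separate sets for cycling cells, Tregs, effector and naive-like cells were each highest in their own class in both libraries. The separate myeloid set (Tyrobp, Fcer1g, Cd14, Ctsb) was at 7577 and 9895 CPM in myeloid cells but also at 7937 and 8699 CPM in pDC, so it did not separate these classes. Hepatocyte markers summed to at most 8.05 CPM and B cell markers to at most 41.3 CPM in any class.

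**Figure D1:**
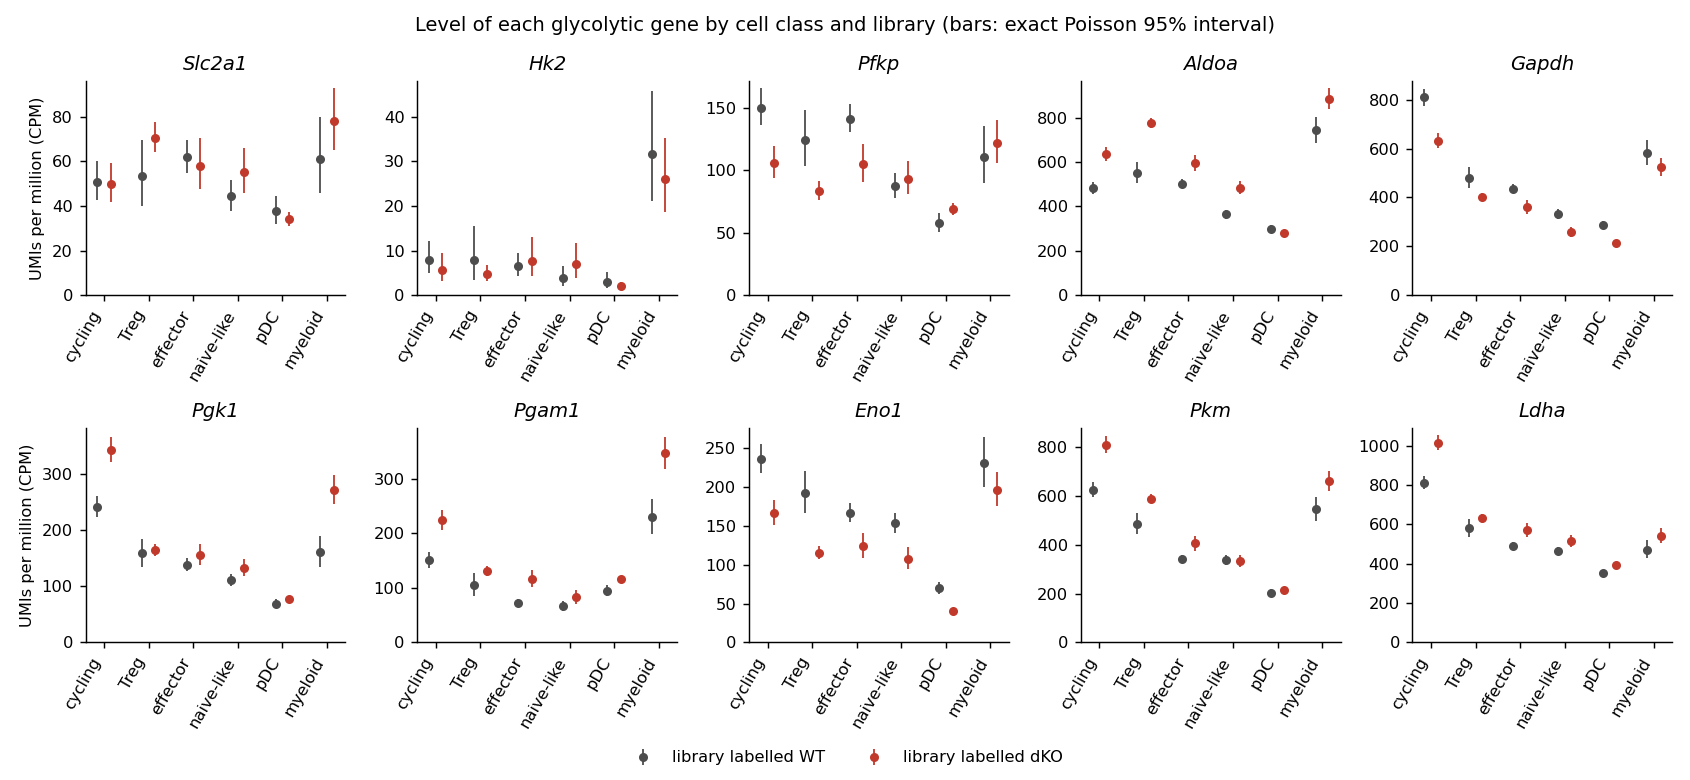
CPM of each of the 10 genes (panels, y axis) in the 6 cell classes (x axis), in the library labelled WT and the library labelled dKO. Bars are exact Poisson 95% intervals of the summed UMIs. In both libraries pDC held the lowest level of 9 of the 10 genes, and Gapdh and Eno1 were lower in the library labelled dKO in every class.

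Summed over whole classes, the 10 genes took the largest share of UMIs in cycling cells and the smallest in pDC. In the library labelled WT the 10 genes summed to 3568 CPM in cycling cells, 3167 in myeloid cells, 2739 in Tregs, 2356 in effector cells, 1964 in naive-like cells and 1474 in pDC. The sums in the library labelled dKO were 3990.2, 3653, 2967, 2497, 2068 and 1437 CPM. The order of the classes was the same in both libraries, and no neighbouring intervals overlapped. With scaling by trimmed mean of M values (TMM), which sets the totals by the bulk of genes, myeloid cells passed cycling cells in the library labelled dKO. Cycling cells were also not highest in cells with 1500 to under 3000 UMIs of that library. They held 0.290% of UMIs (0.266% to 0.315%) there, against 0.294% (0.288% to 0.301%) in Tregs. The highest class was 2.42 and 2.78 times the lowest over all 6 classes, and 1.82 and 1.93 times over the 4 T cell classes.

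Glucose uptake and the first steps. Slc2a1 (chr4:119108711-119137983, GRCm38, forward strand) encodes GLUT1, the main glucose carrier of activated T cells. It lay at 50.7 CPM in cycling cells, 53.2 in Tregs, 62.0 in effector cells, 44.3 in naive-like cells, 37.9 in pDC and 61.1 in myeloid cells of the library labelled WT. Its values in the library labelled dKO were 49.8, 70.6, 58.1, 55.1, 34.0 and 78.0 CPM. The intervals of all neighbours in this order overlapped in the library labelled WT, while only pDC of the library labelled dKO stood apart from the class above it. Slc2a1 was thus the member with the smallest spread in the library labelled WT, with 1.64-fold between the highest and lowest class, and cycling cells did not hold more of it than effector cells (log2 ratio -0.29, interval -0.60 to 0.01, and -0.22, interval -0.60 to 0.16). With cells thinned to 1000 UMIs before gating Slc2a1 passed 1.5-fold as lower in cycling cells of the library labelled WT (log2 ratio -1.41, from 8 UMIs in 334 cycling and 50 in 785 effector cells), as 22.1% of 3935 genes did.

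Hk2 (chr6:82725025-82774454, reverse strand) encodes the hexokinase isoform that is induced on activation. It was sparse. Outside myeloid cells its level ran from 2.95 CPM in pDC (12 UMIs) to 7.89 CPM in Tregs (8 UMIs) of the library labelled WT and from 2.1 CPM in pDC (28 UMIs) to 7.75 CPM in effector cells (14 UMIs) of the library labelled dKO. In myeloid cells it was at 31.7 CPM (28 UMIs) and 26.0 CPM (42 UMIs), which was above effector cells by 2.27 on the log2 scale (1.46 to 3.07) and by 1.75 (0.85 to 2.73). Hk2 stayed under the minimum of 50 CPM in all classes and was not counted in the calls below. Hk1, the isoform that most tissues hold, was at 57.2 to 62.7 CPM in cycling cells, Tregs and effector cells of the library labelled WT and at 57.0 to 71.5 CPM in those of the library labelled dKO. Hk3, known from myeloid cells, was at 35.1 and 57.0 CPM in myeloid cells and at most at 1.5 CPM elsewhere.

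Pfkp (chr13:6579768-6648777, reverse strand) encodes the platelet-type phosphofructokinase, which acts at the committed step. In the library labelled WT it lay at 150.1 CPM in cycling cells, 124 in Tregs, 141 in effector cells, 87.2 in naive-like cells, 58.0 in pDC and 111 in myeloid cells. The same classes of the library labelled dKO held 106, 83.5, 105, 93.3, 68.8 and 122 CPM. The spread between classes was 2.59-fold in the library labelled WT and 1.77-fold in the library labelled dKO, and in the first naive-like cells lay below effector cells past 1.5-fold, a call that ended with TMM scaling and with totals without ribosomal protein and mitochondrial genes. The difference between the libraries in this spread was not tested.

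Aldoa (chr7:126795234-126800751, reverse strand, with another row at chr7:126800790-126809108 that held 6 and 4 UMIs) encodes aldolase A, which cleaves the doubly phosphorylated sugar. It was highest in myeloid cells, at 742 CPM in the library labelled WT, with 884 in the library labelled dKO. The 4 T cell classes (cycling, Treg, effector, naive-like) were at 484, 552, 502 and 364 CPM and at 637, 774, 594 and 484 CPM, and pDC at 299.9 and 281 CPM. Cycling cells differed from effector cells by -0.05 (-0.15 to 0.05) and 0.10 (-0.01 to 0.21) on the log2 scale, and both intervals held 0.

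Lower glycolysis. Gapdh (chr6:125161715-125166467, reverse strand) encodes the dehydrogenase that makes NADH. It was at 809 CPM in cycling cells, 479 in Tregs, 436 in effector cells, 332 in naive-like cells, 289 in pDC and 583 in myeloid cells of the library labelled WT. The library labelled dKO held 633, 400.0, 361, 257, 214 and 523 CPM, lower in every class. Gapdh is often used as a reference gene. Its highest class was 2.80 and 2.96 times its lowest, against 2.71 and 2.88 times for Hprt, 2.27 and 2.42 for Ppia, 2.1 and 1.87 for Actb and 1.25 and 1.36 for B2m, so its spread was the widest of the 9 reference genes looked at.

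Pgk1 (chrX:106187100-106203699, forward strand) encodes phosphoglycerate kinase, which makes the first ATP of the pathway. The library labelled WT held 242 CPM of it in cycling cells, 159 in Tregs, 138 in effector cells, 111 in naive-like cells, 68.3 in pDC and 161 in myeloid cells. The values in the library labelled dKO were 344, 164, 156, 133, 76.9 and 272 CPM. As whole classes, cycling and myeloid cells of the library labelled dKO thus stood further from the other classes than those of the library labelled WT. With 1500 to under 3000 UMIs, cycling, myeloid and effector cells held 221, 118 and 152 CPM in the library labelled WT. Those of the library labelled dKO held 198, 160 and 148 CPM, so cycling cells did not stand further from effector cells there.

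Pgam1 (chr19:41911923-41918660, forward strand) encodes phosphoglycerate mutase. It was the member that was not lowest in pDC in either library, with 94.9 and 116 CPM in pDC against 66.3 and 83.0 CPM in naive-like cells. Myeloid cells were highest at 229.7 and 347 CPM, followed by cycling cells at 150.5 and 224 CPM. Tregs were at 105 and 130.3 CPM and effector cells at 72.0 and 116 CPM.

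Eno1 (chr4:150236721-150248879, forward strand) encodes enolase 1. Its level in the library labelled WT was 237 CPM in cycling cells, 192 in Tregs, 167 in effector cells, 153 in naive-like cells, 69.8 in pDC and 231 in myeloid cells. Cells of the library labelled dKO held 167, 115, 124, 107, 39.9 and 197 CPM, lower in each class. Eno1b, a near-identical copy without introns, held 645 and 752 UMIs, and reads from the copy and from Eno1 may have been split between their rows.

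Pyruvate and lactate. Pkm (chr9:59656368-59679375, forward strand) encodes pyruvate kinase, whose PKM1 and PKM2 forms cannot be told apart in counts per gene. In the library labelled WT it was at 625 CPM in cycling cells, 487 in Tregs, 342 in effector cells, 338 in naive-like cells, 203 in pDC and 545 in myeloid cells. The library labelled dKO held 810.1, 589.6, 405, 334, 213 and 661 CPM. Tregs lay above effector cells in both libraries, by 0.51 (0.36 to 0.66) and 0.54 (0.43 to 0.66) on the log2 scale, which stayed under 1.5-fold.

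Ldha (chr7:46841475-46855627, forward strand) encodes the subunit of lactate dehydrogenase that favours lactate. It was at 812 CPM in cycling cells, 579.8 in Tregs, 488 in effector cells, 464 in naive-like cells, 351 in pDC and 472 in myeloid cells of the library labelled WT. The library labelled dKO held 1014, 634, 570.2, 514, 391 and 542 CPM. Myeloid and effector cells were not distinguishable for Ldha, with log2 ratios of -0.05 (-0.20 to 0.10) and -0.07 (-0.20 to 0.06).

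Cycling cells were then set against effector cells of the same library. Gapdh, Pgk1, Pgam1, Pkm and Ldha, all enzymes after the aldolase step, were higher past 1.5-fold in both libraries. They were 5 of 9 members tested in the library labelled WT, against 15.7% of 3822 genes that were higher past 1.5-fold. They were also 5 of 9 in the library labelled dKO, against 19.3% of 3699 genes. With cells thinned to 1000 UMIs before gating, Gapdh, Pkm and Ldha stayed past 1.5-fold in both libraries, while Pgk1 lost its call in the library labelled WT (63 UMIs in 334 cycling and 128 in 785 effector cells) and Pgam1 lost it in the library labelled dKO (49 UMIs in 262 cycling and 66 in 527 effector cells). The members higher were then 5 of 9, Eno1 among them, against 21.5% of 3935 genes in the library labelled WT, and 4 of 8 against 25.3% of 3875 genes in the library labelled dKO. Some calls also ended in cells of like depth. With 1500 to under 3000 UMIs, cycling and effector cells of the library labelled dKO held 198 and 148 CPM of Pgk1. Pgam1 was there at 157 and 115 CPM and Ldha at 788 and 586 CPM, and all of these were short of 1.5-fold. Pgk1 in this bin of the library labelled WT (221 and 152 CPM) also fell short. So did Gapdh in the library labelled dKO with 3000 or more UMIs (642 and 447 CPM). Of the 5, Pkm alone stayed past 1.5-fold in both of these bins in both libraries. In the whole classes, without thinning, the median log2 ratio of the members was 0.73 and 0.81, against -0.01 and 0.04 over all genes tested. Gapdh was higher by 0.89 (0.80 to 0.98) and 0.81 (0.68 to 0.94) on the log2 scale. Pgk1 was higher by 0.81 (0.65 to 0.97) in the library labelled WT and by 1.15 (0.95 to 1.34) in the library labelled dKO. Pgam1 was higher by 1.06 (0.85 to 1.28) and 0.95 (0.72 to 1.19). Pkm was higher by 0.87 (0.77 to 0.97) and 1.0 (0.88 to 1.12), and Ldha by 0.73 (0.65 to 0.82) and 0.83 (0.73 to 0.94). Eno1 lay above effector cells by 0.50 (0.35 to 0.66) and 0.43 (0.19 to 0.67), short of 1.5-fold. Pfkp differed by 0.09 (-0.10 to 0.27) and 0.01 (-0.26 to 0.28).

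**Figure D2:**
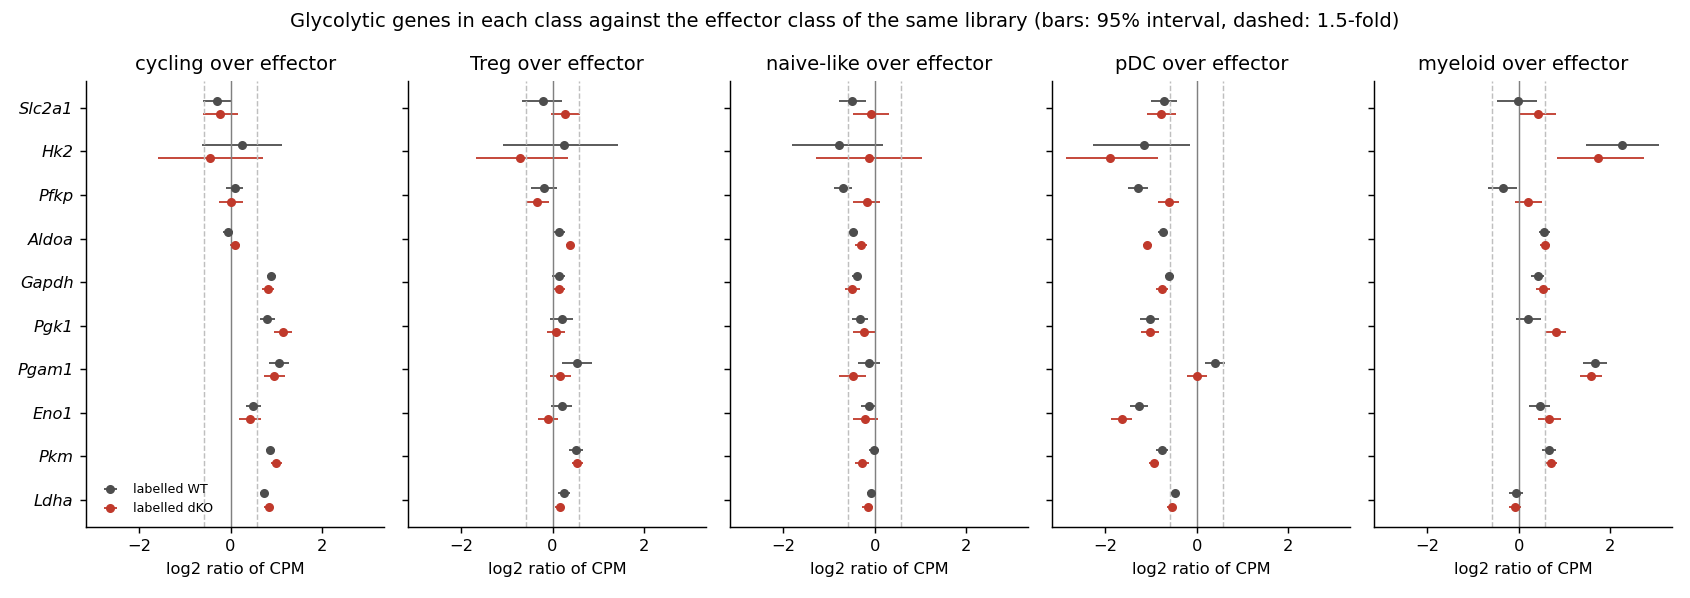
Log2 ratio of CPM (x axis) of each of the 10 genes (y axis) in 5 cell classes over effector cells of the same library (panels), for the library labelled WT and the library labelled dKO. Bars are exact conditional 95% intervals, and dashed lines mark 1.5-fold. Gapdh, Pgk1, Pgam1, Pkm and Ldha lie beyond the upper line in cycling cells, and in pDC Pgam1 alone does not lie below 0.

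The start regions of the 5 genes that were higher past 1.5-fold in cycling cells of both libraries are printed here to show whether these promoters share the short sequences that the factors HIF-1 (ACGTG or GCGTG) and MYC (CACGTG, which holds ACGTG) are known to bind. Each is RefSeq sequence of GRCm38.p6, read 5′ to 3′ on the strand of the gene, from 250 bases before a start that RefSeq annotates to 50 after it, the first listed for the gene. This start is not the end of the GENCODE gene given above for Ldha, where it lies 4329 bases inside the gene, or for Gapdh (694 bases inside), Pkm (208 inside) and Pgam1 (52 before it). Capitals mark ACGTG and GCGTG on either strand, where the other strand reads CACGT and CACGC. The windows are chr6:125165724-125166023 (reverse strand) for Gapdh, chrX:106186850-106187149 (forward) for Pgk1, chr19:41911621-41911920 (forward) for Pgam1, chr9:59656326-59656625 (forward) for Pkm and chr7:46845554-46845853 (forward) for Ldha.
Gapdh: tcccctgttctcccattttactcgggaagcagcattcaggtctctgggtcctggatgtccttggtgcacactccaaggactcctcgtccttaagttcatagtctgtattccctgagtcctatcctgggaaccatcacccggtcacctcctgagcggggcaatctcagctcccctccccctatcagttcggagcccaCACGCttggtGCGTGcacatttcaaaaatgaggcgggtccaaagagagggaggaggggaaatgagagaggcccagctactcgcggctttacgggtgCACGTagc
Pgk1: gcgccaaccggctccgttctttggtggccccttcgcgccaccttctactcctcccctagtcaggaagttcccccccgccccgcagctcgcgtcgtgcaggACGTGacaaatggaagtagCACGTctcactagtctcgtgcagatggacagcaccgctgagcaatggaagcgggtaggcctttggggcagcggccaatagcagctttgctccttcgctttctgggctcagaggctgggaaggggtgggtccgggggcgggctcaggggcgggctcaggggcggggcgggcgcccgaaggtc
Pgam1: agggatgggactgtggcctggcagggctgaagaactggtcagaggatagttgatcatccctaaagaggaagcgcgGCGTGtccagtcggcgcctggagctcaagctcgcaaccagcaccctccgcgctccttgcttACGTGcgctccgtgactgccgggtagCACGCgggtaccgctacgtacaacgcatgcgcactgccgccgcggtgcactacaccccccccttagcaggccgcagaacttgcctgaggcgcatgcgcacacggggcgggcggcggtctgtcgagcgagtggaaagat
Pkm: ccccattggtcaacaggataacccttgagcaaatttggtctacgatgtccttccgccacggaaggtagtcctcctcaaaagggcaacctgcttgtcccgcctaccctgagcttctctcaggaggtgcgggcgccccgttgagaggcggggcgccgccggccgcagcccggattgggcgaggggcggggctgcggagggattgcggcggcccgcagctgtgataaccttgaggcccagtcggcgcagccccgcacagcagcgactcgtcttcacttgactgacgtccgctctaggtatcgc
Ldha: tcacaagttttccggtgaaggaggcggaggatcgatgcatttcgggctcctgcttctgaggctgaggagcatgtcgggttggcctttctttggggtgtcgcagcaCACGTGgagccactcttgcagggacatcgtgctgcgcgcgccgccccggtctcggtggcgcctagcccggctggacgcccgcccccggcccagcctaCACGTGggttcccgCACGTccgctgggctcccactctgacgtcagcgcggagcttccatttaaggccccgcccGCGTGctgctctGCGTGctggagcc
Counting both strands, the Ldha window held 5 ACGTG and 2 GCGTG, of which 2 pairs of overlapping ACGTG matches formed the palindrome CACGTG. The Pgk1 window held 2 ACGTG, the Gapdh and Pgam1 windows 1 ACGTG and 2 GCGTG each, and the Pkm window held neither. Among the members outside this set, Hk2 held 2 ACGTG, Slc2a1 held 1 of each, Eno1 held 2 GCGTG, Pfkp held 4 GCGTG and Aldoa held neither. Of all 32851 windows of this length, 19.6% held ACGTG, 32.4% held GCGTG and 43.8% held either, and 8 of the 10 members held either in the first window listed. These matches are letters in a window and no measurement of binding.

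Tregs, naive-like cells and pDC were set against the same effector cells, so these comparisons share them. In Tregs 0 of 9 members were higher past 1.5-fold in either library, against 6.7% of 3658 genes in the library labelled WT and 11.3% of 3598 in the library labelled dKO. The sum of the 10 genes was nevertheless higher in Tregs by 0.22 (0.16 to 0.28) and 0.25 (0.20 to 0.30) on the log2 scale. In naive-like cells 1 of 9 members, Pfkp, was lower past 1.5-fold in the library labelled WT (-0.69, -0.89 to -0.50), against 13.3% of 3486 genes. None, 0 of 9, was in the library labelled dKO, against 6.51% of 3393 genes. The call of Pfkp ended with TMM scaling and with totals without ribosomal protein and mitochondrial genes, which moved every gene up by 0.12 and 0.18. With cells thinned to 1000 UMIs before gating, 4 of 9 members were lower in the library labelled WT (Slc2a1, Pfkp, Aldoa and Pgk1), against 19.7% of 3549 genes. The library labelled dKO then held 4 of 9 lower (Gapdh, Pgk1, Pgam1 and Eno1), against 14.8% of 3500 genes. The sum was lower in naive-like cells by -0.26 (-0.31 to -0.22) and -0.27 (-0.33 to -0.21).

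In pDC 7 of 9 members tested were lower than in effector cells past 1.5-fold in both libraries, against 26.9% of 4075 genes in the library labelled WT and 23.8% of 3944 in the library labelled dKO. TMM scaling, which moved every gene up by 0.17 and 0.18 on the log2 scale, left 3 and 5 members lower, against 20.7% and 18% of genes. The members were Slc2a1, Pfkp, Aldoa, Gapdh, Pgk1, Eno1 and Pkm. Eno1 differed most in the library labelled dKO, with a log2 ratio of -1.64 (-1.86 to -1.40) against -1.26 (-1.46 to -1.06) in the library labelled WT. Ldha was lower by less, at -0.48 (-0.57 to -0.38) and -0.54 (-0.64 to -0.44). Pgam1 was higher in pDC in the library labelled WT (0.40, 0.18 to 0.62) and not distinguishable in the library labelled dKO (0.00, -0.21 to 0.22).

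In myeloid cells Pgam1 and Pkm were higher past 1.5-fold in the library labelled WT, 2 of 9 against 18.2% of 3929 genes. These and Pgk1 and Eno1 were higher in the library labelled dKO, 4 of 9 against 22.7% of 3896 genes. TMM scaling moved every gene up by 0.13 and 0.23 and gave 4 and 7 members, against 22% and 29.8% of genes. Totals without ribosomal protein and mitochondrial genes moved every gene by -0.14 in the library labelled dKO, where Eno1 and Pkm then lost their calls. At like depth, Pkm in myeloid and effector cells of this library was at 496 and 370 CPM under 1500 UMIs. It was at 452 and 387 CPM with 1500 to under 3000 and at 714 and 491 CPM with 3000 or more. All were short of 1.5-fold. Pgk1 in the lower bins was at 149 and 159, then 160 and 148 CPM, and passed 1.5-fold in the deepest alone. Eno1 did likewise (161 and 124, then 182 and 133 CPM). Pgam1 stayed past 1.5-fold in each bin of both libraries, as Pkm did in the library labelled WT. Pgam1 showed the widest difference of the members tested, with log2 ratios of 1.67 (1.41 to 1.93) and 1.58 (1.35 to 1.82). The myeloid classes of the libraries differed in neutrophil transcripts, and whether they held the same cells was not tested. The neutrophil genes S100a8 and S100a9 summed to 10.2 CPM in the library labelled WT and 9508 CPM in the library labelled dKO.

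Other parts of glucose metabolism were read from lists. In cycling over effector cells, 1 of 3 tested genes of the other glycolytic genes (17 in the list) was higher in the library labelled WT and 2 of 4 in the library labelled dKO, where 15.7% and 19.3% of all genes tested were higher. Tpi1, the isomerase between the aldolase and Gapdh steps, was at 193 against 72.4 CPM in the library labelled WT (log2 ratio 1.41, 1.21 to 1.62). It was at 292 against 88.6 CPM in the library labelled dKO (1.72, 1.47 to 1.98), where Pfkl, the liver-type phosphofructokinase, was at 52.1 against 32.7 CPM (0.67, 0.22 to 1.14). Hk1, another hexokinase, was at the low end (0.06, -0.23 to 0.34, and 0.33, -0.03 to 0.69). Of 11 TCA cycle genes, which act in mitochondria, 6 were higher in the library labelled WT, with 5 higher in the library labelled dKO, led by Fh1, fumarate hydratase (1.16, 0.81 to 1.51, and 1.63, 1.11 to 2.18). Ogdh, a subunit of oxoglutarate dehydrogenase, was lowest (-0.14, -0.36 to 0.08, and -0.21, -0.48 to 0.06). Of 4 tested genes of lactate export and pyruvate fate, 0 passed 1.5-fold in either library, with Bsg, a partner of lactate carriers, highest (0.44 and 0.53) and Mpc2 (0.07, library labelled WT) and Pdha1 (-0.31, library labelled dKO) lowest. Slc16a3, the lactate exporter MCT4, was under the 50 CPM minimum and so was not tested. It was at 22.1 against 5.22 CPM in the library labelled WT (2.08, 1.37 to 2.85) and at 45.3 against 13.3 CPM in the library labelled dKO (1.77, 1.13 to 2.47). Tkt of the pentose phosphate pathway was higher in both (0.85, 0.67 to 1.03, and 0.90, 0.67 to 1.14), as 1 of 3 tested, with Pgls lowest (0.03 and 0.07). Txnip, which is known to restrain glucose uptake, was lower in cycling cells, at 81.8 against 197 CPM in the library labelled WT and at 70.4 against 171 CPM in the library labelled dKO, and Hif1a, the other regulator tested, was at a log2 ratio of -0.05 (-0.18 to 0.07) and -0.48 (-0.62 to -0.35). Of 4 tested hypoxia-response genes outside glycolysis, Mif (0.70, 0.59 to 0.81, and 0.91, 0.79 to 1.03) and Ddit4 (0.60, 0.40 to 0.79, and 0.80, 0.54 to 1.05) were higher past 1.5-fold, and Ero1l was lowest (-0.06 and -0.31). Of the 7 reference genes tested, Actb, Ppia and Hprt were also higher past 1.5-fold in cycling cells of both libraries, and the lowest were Eef1a1 (-0.30, library labelled WT) and B2m (-0.18, library labelled dKO).

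The cycling class was split further to see whether its level rested on a subset. Cycling cells with a Foxp3 UMI held 3637 CPM of the 10 genes in the library labelled WT (75 cells) and 4259 in the library labelled dKO (194 cells), and those without held 3555 (570 cells) and 3769 CPM (310 cells). Cycling cells with 3 to 9 UMIs of cell cycle genes held 3382 and 3959.8 CPM, and those with 10 or more held 3653 and 3999 CPM. T cells with 1 or 2 such UMIs held 2595 and 2961 CPM, and T cells with 0 held 2306 and 2642 CPM. The level was thus ordered by the number of cell cycle UMIs in both libraries, although the intervals of the upper groups overlapped in the library labelled dKO. Depth moved with this order, with medians from 1664 UMIs per cell at 0 cell cycle UMIs to 4468 at 10 or more in the library labelled WT and from 1334 to 5167 in the library labelled dKO, and its part was not tested. Among effector cells, those with Il17a or Il17f UMIs only held 2775 and 2704 CPM, and those with Ifng UMIs only held 2372 and 2489 CPM. Pkm took part in this difference, at 523 against 335 CPM in the library labelled WT and 507 against 398 CPM in the library labelled dKO.

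**Figure D3:**
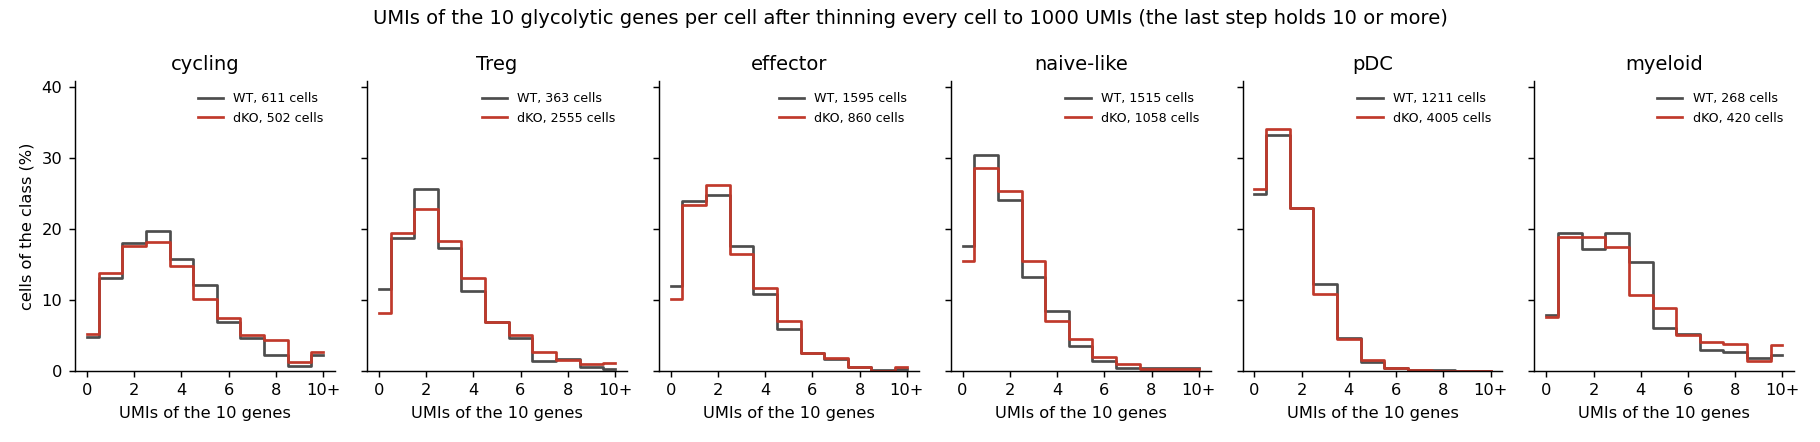
UMIs of the 10 genes per cell (x axis) after each cell was thinned to 1000 UMIs, as the percentage of cells of each class (y axis), for the library labelled WT and the library labelled dKO. Cells with fewer than 1000 UMIs were left out, and the last step holds cells with 10 or more. Cycling and myeloid cells reach furthest to the right, and pDC lie furthest to the left with a peak at 1 UMI.

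Deeper cells give more UMIs, and the medians ran from 1553.5 UMIs in Tregs to 4778.5 in cycling cells of the library labelled dKO and from 1674 in pDC to 3404 in cycling cells of the library labelled WT. Each cell was thinned to 1000 UMIs, which gives cells equal weight but keeps the expected share in each cell. Cycling cells then held 3.54 UMIs of the 10 genes per cell in the library labelled WT, with 3.67 in the library labelled dKO. Effector cells held 2.34 and 2.44, naive-like cells 1.91 and 2.01 and pDC 1.46 and 1.42. Tregs held 2.60 and 2.89 and myeloid cells 3.18 and 3.37, in the order of the sums. Because thinning keeps shares, this order could not show whether the sums rest on depth. The share of thinned cells with 5 or more such UMIs was 28.8% and 30.7% in cycling cells and 1.98% and 2.12% in pDC. Thinning left out 34 cycling cells, 49 Tregs, 128 effector cells, 102 naive-like cells, 408 pDC and 58 myeloid cells of the library labelled WT. It left out 2, 529, 95, 111, 15 and 28 cells of these classes in the library labelled dKO.

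Over whole classes the sum of the 10 genes differed little between the libraries, while single members differed in opposite directions. In cells of like depth the sum went both ways in cycling and in myeloid cells, as given below. Over the 6 classes the log2 ratio of the sum, as the library labelled dKO over the library labelled WT, ran from -0.04 in pDC (-0.08 to 0.01) to 0.21 in myeloid cells (0.14 to 0.27). Over all cells it was -0.01 (-0.02 to 0.01). Weighting the 6 classes equally gave 0.12. The pDC, the lowest class, made up 1619 of 10556 cells in the library labelled WT and 4020 of 17462 in the library labelled dKO. Classes of the same name also differed in markers. The separate effector set was at 1607 and 5734 CPM in Tregs and at 4215 and 10459.5 CPM in effector cells (WT, dKO). The separate pDC set was alike in pDC, at 7543 and 7521 CPM. A difference in which cells filled a class cannot be told apart from a difference in the 10 genes within like cells.

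Gapdh and Eno1 were lower in the library labelled dKO in 6 of 6 classes, with the interval below 0 in 5 of them and the exception of myeloid cells for both. The log2 ratio of Gapdh was -0.36 (-0.45 to -0.26) in cycling cells, -0.26 (-0.40 to -0.12) in Tregs, -0.27 (-0.40 to -0.14) in effector cells, -0.37 (-0.52 to -0.22) in naive-like cells, -0.43 (-0.53 to -0.33) in pDC and -0.16 (-0.32 to 0.01) in myeloid cells. That of Eno1 was -0.51 (-0.69 to -0.33), -0.74 (-0.97 to -0.50), -0.43 (-0.65 to -0.21), -0.51 (-0.74 to -0.29), -0.81 (-1.02 to -0.60) and -0.23 (-0.49 to 0.03) in the same order. Summing Eno1 with its copy Eno1b gave -0.25 to -0.76, below 0 in each class. Pgam1 and Ldha went the other way in 6 of 6 classes, with each interval above 0. Pgam1 differed by 0.57 in cycling cells, 0.32 in Tregs, 0.69 in effector cells, 0.32 in naive-like cells, 0.29 in pDC and 0.59 in myeloid cells. Ldha differed by less, from 0.13 in Tregs (0.00 to 0.26) to 0.32 in cycling cells (0.24 to 0.40). Pgk1 was also higher in 6 of 6 classes, with the interval above 0 in 3. With cells thinned to 1000 UMIs before gating, Pgam1 in naive-like cells turned to -0.11, and in Tregs Pgk1 turned to -0.27 and Ldha to -0.01, while Gapdh and Eno1 kept their direction in each class. Members of consecutive steps thus lay on opposite sides between these libraries. The share of all genes that kept their direction over the classes was not counted. Of the reference genes, Actb and Tbp were also lower in the library labelled dKO in each class, and B2m, Ppia and Ywhaz were higher. Hprt, Sdha and Eef1a1 went both ways. In Tregs of the libraries labelled WT and dKO, Actb was at 10357 and 8092 CPM and B2m at 3007 and 4776 CPM.

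**Figure D4:**
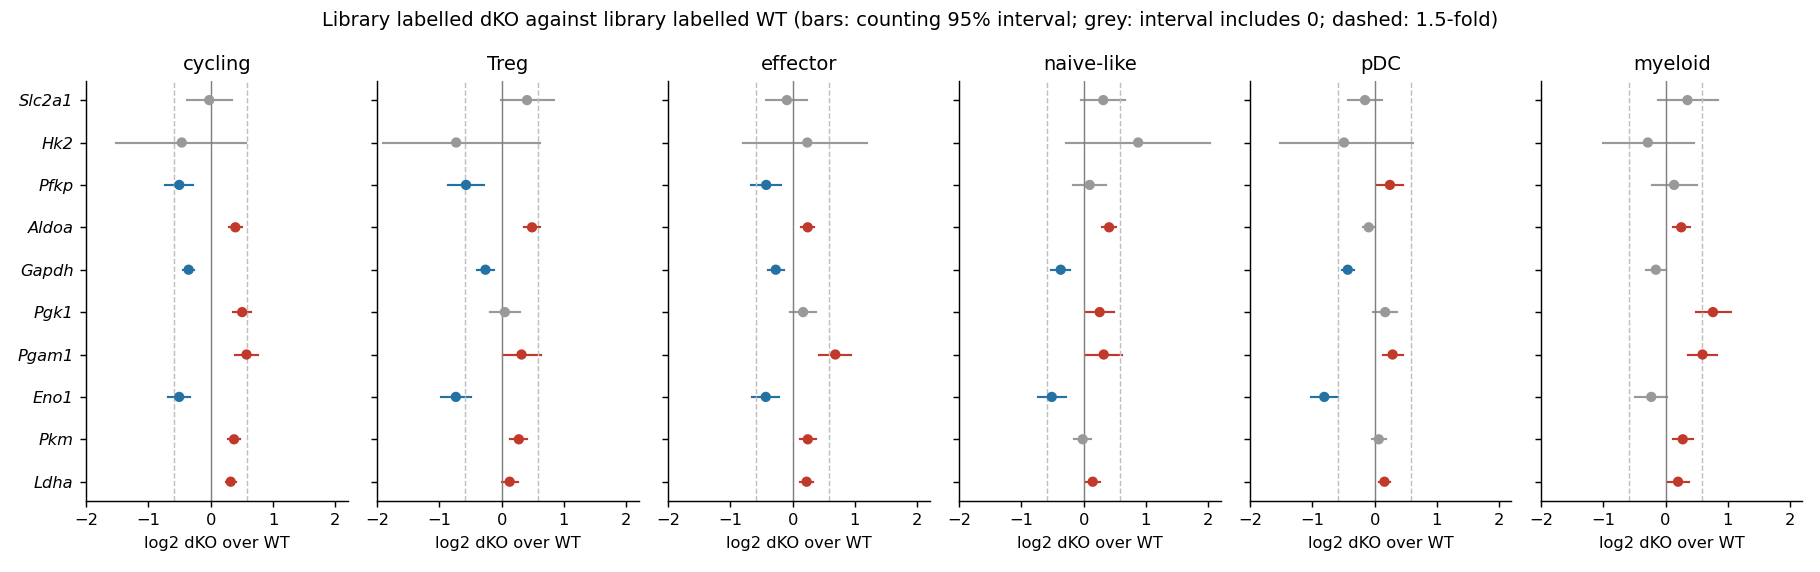
Log2 ratio of CPM of the library labelled dKO over the library labelled WT (x axis) for each of the 10 genes (y axis) in the 6 cell classes (panels). Bars are exact conditional 95% intervals, red and blue points have intervals above and below 0, grey ones hold 0, and dashed lines mark 1.5-fold. Gapdh and Eno1 lie below 0 in all 6 classes, and Pgk1, Pgam1 and Ldha above 0.

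The differences past 1.5-fold were counted in each class. In cycling cells 0 of 9 members were higher, against 4.68% of 3697 genes, and 0 lower, against 10.1%. In Tregs 0 of 9 were higher, against 9.3% of 3753 genes, and 1, Eno1, was lower, against 9.22%. TMM scaling moved every gene in Tregs up by 0.16, so that Eno1 was no longer past 1.5-fold (0 lower, against 5.63%) and Aldoa was (1 higher at 0.65, against 17.6% of 3590 genes). In effector cells 1 of 9, Pgam1, was higher, against 4.01% of 3545 genes, and 0 lower, against 8.04%. In naive-like cells 0 of 9 were higher, against 5.87% of 3287 genes, and 0 lower, against 2.83%. In pDC 0 of 8 were higher, against 2.72% of 3495 genes, and 1, Eno1, was lower, against 3.92%. In myeloid cells 2 of 9, Pgk1 (0.76, 0.49 to 1.05) and Pgam1 (0.59, 0.36 to 0.83), were higher, against 7.72% of 3510 genes, and 0 lower, against 9.06%. With cells thinned to 1000 UMIs before gating, Pgam1 of 8 members tested in cycling cells was higher, against 15.1% of 3849 genes, and Gapdh and Eno1 were lower, against 12.6%. Slc2a1, Aldoa and Pgam1 of 9 were then higher in Tregs, against 15.8% of 3972 genes, and Eno1 was lower, against 15.8%. In myeloid cells Pgk1 kept its call under this thinning (1.10, 1 of 9 members against 16.9% of 3713 genes) and Pgam1 lost it (0.46). Eno1 lost its call in pDC (161 UMIs in 3766 cells of the library labelled dKO and 71 in 1158 of the library labelled WT). Slc2a1 gained one as higher in naive-like cells (47 UMIs in 750 and 40 in 1021 cells). Where counts moved under this thinning, 8.85% to 31.6% of genes were past the fold in either direction. At like depth Pgk1 in myeloid cells was past 1.5-fold only with 3000 or more UMIs (0.70, 0.38 to 1.03). It was at 0.18 (-1.05 to 1.37) under 1500 UMIs and at 0.44 (-0.28 to 1.17) with 1500 to under 3000.

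Aldoa was higher in the library labelled dKO in 5 of 6 classes, by 0.40 (0.29 to 0.50) in cycling cells, 0.49 (0.36 to 0.62) in Tregs, 0.24 (0.14 to 0.35) in effector cells, 0.41 (0.29 to 0.53) in naive-like cells and 0.25 (0.12 to 0.39) in myeloid cells, and it was at -0.09 (-0.19 to 0.00) in pDC. In myeloid cells Aldoa turned to -0.10 with cells thinned to 1000 UMIs before gating. Gapdh UMIs per Aldoa UMI differed between the libraries, with 1.67 against 0.994 in cycling cells, 0.868 against 0.517 in Tregs and 0.867 against 0.608 in effector cells. Ldha UMIs per Gapdh UMI were 1.0 against 1.60 in cycling cells and 1.21 against 1.58 in Tregs. Eno1 UMIs per Pgk1 UMI ran from 0.977 to 1.44 over the classes of the library labelled WT and from 0.485 to 0.809 in the library labelled dKO. These ratios within a library do not depend on its total.

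Pfkp was lower in the library labelled dKO in cycling cells (-0.50, -0.73 to -0.28), Tregs (-0.57, -0.86 to -0.28) and effector cells (-0.42, -0.67 to -0.19). In pDC it was higher (0.25, 0.04 to 0.46), and in naive-like and myeloid cells the interval held 0 (0.10, -0.17 to 0.36, and 0.14, -0.22 to 0.50). At like depth the interval in pDC lay above 0 only with 3000 or more UMIs (0.25, 0.001 to 0.51). With 1500 to under 3000 UMIs Pfkp in pDC was at -0.15 (-0.59 to 0.32). Naive-like cells with 3000 or more UMIs were at 0.62 (0.13 to 1.09). Pkm was higher in 4 of 6 classes with the interval above 0, by 0.24 to 0.37, while naive-like cells and pDC were at -0.01 (-0.15 to 0.12) and 0.07 (-0.04 to 0.18). The intervals of Slc2a1 and Hk2 held 0 in 6 of 6 classes. Slc2a1 in Tregs was at 0.41 (-0.005 to 0.84). Tpi1, from the list of other glycolytic genes, was higher in 6 of 6 classes, by 0.60 (0.44 to 0.76) in cycling cells and 0.71 (0.44 to 0.99) in myeloid cells, with an interval that held 0 in pDC. Slc16a3 was higher in each class, at 59.4 against 31.6 CPM in Tregs and 116 against 58.8 CPM in myeloid cells. Cycling cells were at 45.3 against 22.1 CPM and effector cells at 13.3 against 5.22 CPM. Naive-like cells were at 15.6 against 5.23 CPM and pDC at 4.42 against 2.21 CPM, on few UMIs.

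The library difference was also read in cells of like depth, in 17 bins that each held at least 20 cells per library. Gapdh was lower in the library labelled dKO in 15 of 17 bins and Eno1 in 16 of 17. How many of all genes kept their direction over as many bins was not counted. The exceptions were the deepest effector cells for Gapdh (0.04, -0.20 to 0.28) and the deepest myeloid cells for Gapdh (0.07) and Eno1 (0.11). Pgam1, Ldha and Pgk1 were each higher in 14 of 17 bins, Aldoa in 12, Pkm in 11 and Pfkp in 6. Pgam1 was lower in 3 bins, the shallowest pDC (-0.20) and, in myeloid cells, those under 1500 UMIs (-0.28, -1.34 to 0.73) and those with 1500 to under 3000 (-0.38, -0.93 to 0.15), so that it was higher in myeloid cells in the deepest bin alone (0.85, 0.55 to 1.16). Of the bins in which Ldha was lower, the interval was below 0 in the shallowest Tregs (-0.39, -0.68 to -0.10) and the middle myeloid cells (-0.43, -0.82 to -0.04). Those of Aldoa were the middle cycling cells (-0.55, -0.97 to -0.13) and the middle pDC (-0.43, -0.63 to -0.23). The sum of the 10 genes moved with depth. In cycling cells with 1500 to under 3000 UMIs it was lower in the library labelled dKO (-0.40, -0.54 to -0.26) and in those with 3000 or more it was higher (0.21, 0.17 to 0.25). In cycling cells of the library labelled dKO the 10 genes took 0.290% of UMIs in the middle bin and 0.408% in the deepest, whereas in the library labelled WT they took 0.350%, 0.382% and 0.353% from the shallowest to the deepest bin. Myeloid cells were at -0.09 (-0.34 to 0.16), -0.32 (-0.47 to -0.18) and 0.32 (0.24 to 0.40) from the shallowest to the deepest bin, and the 10 genes took 0.278%, 0.268% and 0.391% of UMIs in those of the library labelled dKO. The sum in pDC was at -0.24 (-0.33 to -0.15) in the middle bin and 0.04 (-0.01 to 0.09) in the deepest. From the shallowest to the deepest bin the ratio of the sum was -0.09, 0.15 and 0.24 in Tregs, 0.10, 0.04 and 0.22 in effector cells and 0.02, 0.10 and 0.21 in naive-like cells. The 10 genes took 0.271%, 0.294% and 0.324% of UMIs in the same bins of Tregs of the library labelled dKO, 0.237%, 0.246% and 0.274% in its effector cells and 0.192%, 0.203% and 0.243% in its naive-like cells. In each of the 6 classes of the library labelled dKO the deepest bin thus held the largest share of the 10 genes. Depth per cell moved with the sum in that library, and its part in the difference between the libraries was not tested.

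**Figure D5:**
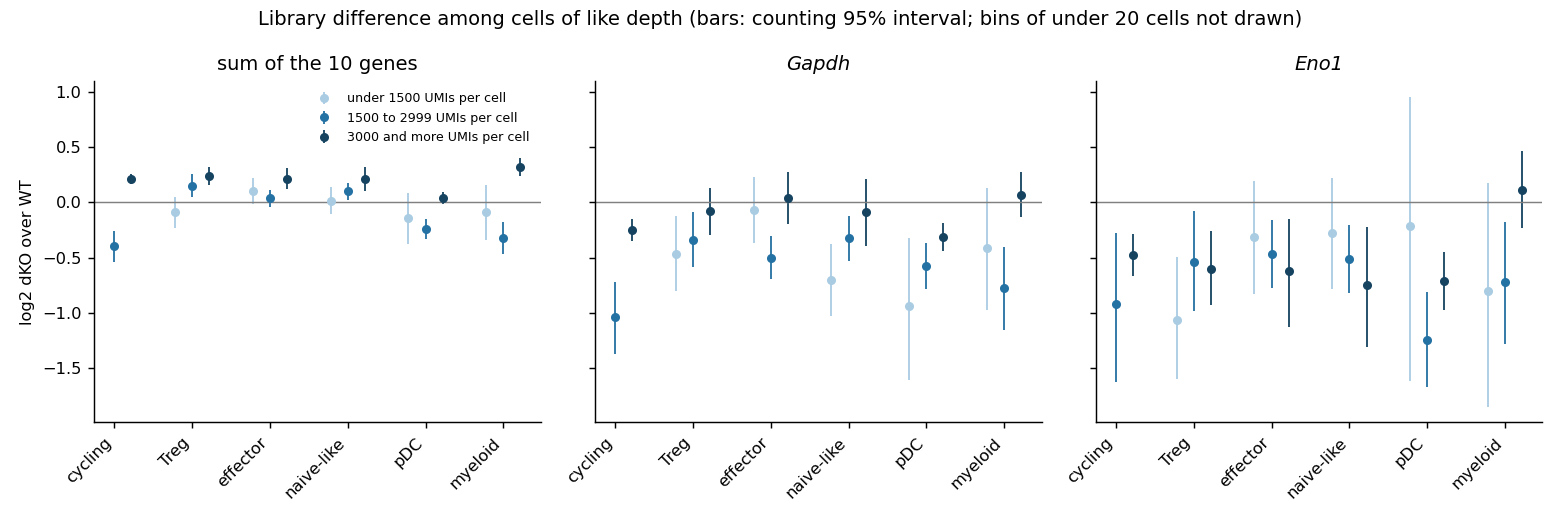
Log2 ratio of CPM of the library labelled dKO over the library labelled WT (y axis) for the sum of the 10 genes, Gapdh and Eno1 (panels), in cells with under 1500, with 1500 to under 3000 and with 3000 or more UMIs (shades) of each class (x axis). Bars are exact conditional 95% intervals, and bins with under 20 cells in either library are not drawn. In cycling cells the sum lies at -0.40 in the middle bin and at 0.21 in the deepest, while Gapdh and Eno1 lie below 0 in both.

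Subsets of the classes were compared between the libraries as well. Gapdh was lower in the library labelled dKO in cycling cells with Foxp3 (-0.24, -0.43 to -0.04) and without it (-0.35, -0.46 to -0.23), and Eno1 likewise (-0.57, -0.92 to -0.22, and -0.50, -0.73 to -0.28). Among myeloid cells with C1q UMIs, a mark of macrophages, the sum of the 10 genes was at 2977 CPM in the library labelled WT, with 3151 in the library labelled dKO, with a log2 ratio of 0.08 (-0.01 to 0.17). Among those without C1q it was at 3379.6 and 4511 CPM, with a log2 ratio of 0.42 (0.32 to 0.51). The neutrophil gene S100a8 moved with this subset, at 9.59 CPM in the library labelled WT and 9476 CPM in the library labelled dKO, against 10.7 and 1299 CPM in cells with C1q. Its part in the difference was not tested. Pgk1 differed in both subsets, by 0.76 (0.36 to 1.18) with C1q and 0.86 (0.48 to 1.26) without.

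Over the 12 sums of class and library, the Pearson correlation of log2 CPM between members ran from 0.071 for Hk2 and Ldha to 0.956 for Pgk1 and Pkm. Pairs of other genes were not computed beside them. Among 5310 genes ranked by their correlation with the mean of the members, Vim (0.967), Morrbid (0.960), Rtn3 (0.954), Aprt (0.943) and Tpi1 (0.940) were most alike. Of the members themselves Pkm was most like the mean (0.955) and Hk2 least (0.715). Each member is part of that mean, which raises its value, so these values cannot be set beside those of the ranked genes. These values describe 12 points that share 2 libraries and their depth.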

How the data were processed

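Hepatic CD4+ T cells of each genotype were sequenced as 1 single-cell library (10x 5′ kit). The authors deposited UMI counts per gene and cell barcode, made with Cell Ranger 7.0.1 on mm10 per the file headers and the submitters' processing notes. Whether intronic reads were counted is not given in the sources used here. Counting error falls with the UMIs summed, from 883728 in myeloid cells of the library labelled WT to 13338820 in pDC of the library labelled dKO.

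Cells with over 200 genes and under 5% mitochondrial UMIs were kept. Gates were at least 2 UMIs of T cell receptor complex genes for T cells and of marker genes for effector and naive-like cells, at least 3 for myeloid cells, pDC and cycling cells, and at least 1 Foxp3 UMI for Tregs. UMIs were summed per class and divided by the class total to give CPM, with exact Poisson intervals. Ratios had exact conditional binomial intervals and shares had Clopper-Pearson intervals, at 95%. A gene was tested in a comparison with at least 50 CPM in one of its groups and called past 1.5-fold. With 1 library per genotype no test was run. All 10 members were named, and of each list the tested genes at the ends of the ratio of cycling over effector cells. Other list genes with values were chosen after these were seen. The members and lists were chosen with earlier results of these data known.

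Scrublet's automatic threshold marked 7 and 0 cells and was taken not to have worked, so doublets were kept and removed only as an alternative, by the expected rate of 0.8% per 1000 cells and by cells with at least 2 TRB chains (997 and 2487 cells). Gene positions are those of GENCODE M21 (GRCm38), in which 32235 of 32285 genes were found, and all 10 members matched the RefSeq promoters of GRCm38.p6. The opposite strand at Gapdh, Aldoa and Pfkp holds Iffo1, Fam57b and Pitrm1, and the strand setting of the counting is not given in the sources used here. Likeness used log2 of CPM plus 10. The scripts ran in Python 3.11.15 with scanpy 1.11.5 and pandas 2.3.3 for the tables, scipy 1.17.1 and numpy 2.4.6 for the intervals and matplotlib 3.10.9 for the plots, and TMM factors came from edgeR 4.0.16 in R 4.3.3. The interval and thinning code was tested on simulated data. Alternatives changed the cell filter, gates, depth, doublets, clonotypes, scaling, minimum CPM and fold. The bulk and TCR tables were not used for levels.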

Additional observations from a re-analysis of the deposited data

Results flagged for a closer look

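Over whole classes Pfkp, the platelet-type phosphofructokinase, went in opposite directions between the libraries in different cell classes. Its log2 ratio, as the library labelled dKO over the library labelled WT, was 0.25 (0.04 to 0.46) in pDC and -0.57 (-0.86 to -0.28) in Tregs. It was singled out because the intervals of the 2 classes lie on opposite sides of 0. In pDC of like depth Pfkp was at 0.07 (-1.67 to 1.49) under 1500 UMIs and -0.15 (-0.59 to 0.32) with 1500 to under 3000. With 3000 or more it was at 0.25 (0.001 to 0.51). Tregs were at -0.45, -0.38 and -0.66 in the same bins. The difference between the classes was not tested, since each genotype had 1 library.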

How the results depend on the processing

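The direction between the libraries was recomputed for each member and class under 9 alternatives, giving 538 ratios, of which 18 changed sign and 6 of these had a reported size of at least 0.2. Gapdh, Eno1 and Pfkp changed sign under 0 of them. Aldoa in myeloid cells turned from 0.25 to -0.10 with cells thinned to 1000 UMIs before gating, and Ldha in Tregs from 0.13 to -0.03 with the mean of each cell's CPM. Of 176 recomputed counts of members past 1.5-fold, 131 stayed within 1.5 times of the reported count, and the count in cycling over effector cells did so in both libraries under every alternative but the fold of 2. The same 5 genes were called in both libraries except with the fold of 2 and with cells thinned to 1000 UMIs before gating. The order of the classes by the sum held under 9 of 9 alternatives in the library labelled WT and 8 of 9 in the library labelled dKO. Cells split by depth were not among these alternatives.

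In the counts that moved, class comparisons are over effector cells. With a fold of 2, cycling cells held 1 and 1 members (WT, dKO), naive-like cells of WT 0, pDC 3 and 3 and myeloid cells 1 and 1, and between the libraries Tregs, effector cells, pDC and myeloid cells held 0. With each gate 1 UMI higher, Tregs held 1 and 1 and naive-like cells of dKO 1. With predicted doublets removed, Tregs held 1 and 1, naive-like cells of dKO 1 and pDC between the libraries 2. With cells thinned to 1000 UMIs before gating, naive-like cells held 4 and 4 and Tregs of dKO 1, and between the libraries cycling cells held 3, Tregs 4, naive-like cells 1, pDC 0 and myeloid cells 1. TMM moved all genes of a comparison by up to 0.23 on the log2 scale, in myeloid cells of dKO, and then naive-like cells of WT held 0, pDC of WT 3, myeloid cells 4 and 7 and cycling cells between the libraries 1. With totals without ribosomal protein and mitochondrial genes, which moved all genes by up to 0.18, naive-like cells of WT held 0, myeloid cells of dKO 2, and between the libraries cycling cells 1, Tregs 2 and myeloid cells 1. With no minimum CPM, naive-like cells of WT held 2, Tregs of dKO 1, and between the libraries Tregs 2 and naive-like cells 1. With the mean of each cell's CPM, naive-like cells of dKO held 1 and myeloid cells between the libraries 1. With 1 cell per clonotype, cycling cells between the libraries held 2 and myeloid cells 1, and with no cell filter myeloid cells held 1. In the comparisons whose counts moved, the genes past the fold in either direction made up 2.09% to 32.8% of all tested with a fold of 2, 16.8% to 20.3% with higher gates, 6.25% to 21.4% without predicted doublets, 8.85% to 31.6% with thinned cells, 14.7% to 48.7% with TMM, 14.5% to 56.4% with the other totals, 40.7% to 49.4% with no minimum CPM, 13.3% to 20.9% with the mean of each cell's CPM, 15.5% to 16.2% with 1 cell per clonotype and 16.9% with no cell filter. The cause of these moves was not tested.

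Each genotype had 1 library from pooled mice, so library, mice and genotype cannot be told apart, and leaving out a replicate was not possible. No paired analysis was possible because each group held 1 library. Values of Hk2 rest on few counts, with 8 to 42 UMIs per class and library.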
